A study of Mus musculus with 33 samples.

Results

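A set of 10 genes of the hypoxia response and of glycolysis is described across mouse ESCs that lack HP1 proteins or SETDB1. They are Ndufa4l2, Slc2a1, Hk2, Pfkp, Pgk1, Ldha, Pdk1, Bnip3, Egln3 and Ankrd37, 10 of the 55487 genes in the deposited tables, and all 10 passed the filter on low counts in every comparison. They were selected on their results in these same data, because Ndufa4l2 is among the most reduced genes both in cells without HP1 and in cells without SETDB1. Their differences in these knockouts are therefore given as a description, with no test.

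The data are RNA-seq of total RNA from C57BL/6 ESCs in 11 conditions with 3 libraries each, 33 in all. Constitutive knockouts made with CRISPR/Cas9 lack 1 HP1 paralog (Hp1α Δ/Δ, Hp1β Δ/Δ or Hp1γ Δ/Δ) or a pair of them (Hp1β/γ Δ/Δ, Hp1α/γ Δ/Δ or Hp1α/β Δ/Δ). The triple knockout, Hp1α/β/γ Δ/Δ, was made with Cre in Hp1α/β Δ/Δ ESCs whose Hp1γ alleles were floxed, so that Hp1γ was lost in culture from cells already without Hp1α and Hp1β. Setdb1 Δ/Δ cells were made with Cre from Setdb1 F/F ESCs, which serve as their control. The labels of this control name no vector, so loss of SETDB1 and handling with Cre cannot be told apart there. The study reports apoptosis and an arrest of the cell cycle in the triple knockout, and increased apoptosis in the double knockouts. It also reports reduced pluripotency markers and induced lineage markers in the triple knockout and in Setdb1 Δ/Δ cells. The part of these changes in the values below was not tested. The study names Hp1α/β Δ/Δ ESCs with floxed Hp1γ that received a control vector as the counterpart of the Cre-treated cells. No library labelled in that way was analysed here. The control in the deposited table of the triple knockout is labelled WT, with no word on a vector, and it expressed Cbx1 at 439 CPM on average (counts scaled by library size, over all 33 libraries together), against 96.6 in Hp1α/β Δ/Δ ESCs, and Cbx5 at 485 against 203. The triple knockout thus differs from this control in all 3 HP1 genes and may differ in the handling with Cre, which cannot be told apart, and it is also given relative to Hp1α/β Δ/Δ ESCs. The wild-type libraries form 2 sets, called here set A (the control of the single knockouts, of Hp1α/β Δ/Δ and of the triple knockout in the deposited tables) and set B (the control of Hp1β/γ Δ/Δ and of Hp1α/γ Δ/Δ). According to the methods, edited ESCs came from individually isolated clones, grew on feeder layers of mouse embryonic fibroblasts with serum and LIF, and were separated from the feeders by adherence. The methods call the 3 libraries of a condition biological replicates, and those of the triple knockout are said to come from independent experiments. The labels give only a number, so p-values measure the spread between these libraries.

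HP1 proteins bind methylated lysine 9 of histone H3, and SETDB1 is an enzyme that methylates it. In the hypoxia response, HIF-1α or HIF-2α pairs with ARNT and binds a short DNA core, while prolyl hydroxylases of the EGLN family mark the α subunits for degradation when oxygen is present. HIF targets include glucose transporters, most enzymes of glycolysis, kinases that inactivate pyruvate dehydrogenase, and genes of mitophagy. Mouse ESCs are known for high glycolysis also in air.

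The promoters are shown because hypoxia-inducible factors bind the cores ACGTG and GCGTG. The RefSeq promoter table (GRCm38.p6) holds 11 windows for 9 of the 10 genes (all but Ndufa4l2), each of 300 bases, from 250 bases before to 50 after a start site. They were searched on both strands, on which the cores also read CACGT and CACGC. Either core was found in 10 of the 11 windows, and in 43.8% of the 32851 windows of all genes. ACGTG was in 7 of the 11 windows and in 19.6% of all, and GCGTG also in 7 and in 32.4% of all. ACGTG overlaps the palindrome CACGTG, which other factors bind and which was in 7.2% of all windows and in windows of 2 of the 9 genes, Ldha and Bnip3. A match of these letters is a description and not a binding site. The genes were grouped as genes of hypoxia and glycolysis, and the windows of all genes were not matched to theirs in base content. Nothing is therefore read from these shares. The 250 bases before the start site are printed for the 4 genes with a window and the lowest triple knockout values relative to set A, with the matched letters in capitals. They lie at chr7:138909507-138909756 (minus strand) for Bnip3, chr13:6648772-6649021 (minus strand) for Pfkp, chr2:71872974-71873223 (plus strand) for Pdk1 and chr7:46845554-46845803 (plus strand) for Ldha. Pdk1 and Ldha have 2 windows each, of which the one with more matches is shown.
Bnip3: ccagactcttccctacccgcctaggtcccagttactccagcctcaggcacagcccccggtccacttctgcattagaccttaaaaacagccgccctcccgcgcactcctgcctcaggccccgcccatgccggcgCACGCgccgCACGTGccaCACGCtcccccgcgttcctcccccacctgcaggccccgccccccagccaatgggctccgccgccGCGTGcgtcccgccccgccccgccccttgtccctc
Pfkp: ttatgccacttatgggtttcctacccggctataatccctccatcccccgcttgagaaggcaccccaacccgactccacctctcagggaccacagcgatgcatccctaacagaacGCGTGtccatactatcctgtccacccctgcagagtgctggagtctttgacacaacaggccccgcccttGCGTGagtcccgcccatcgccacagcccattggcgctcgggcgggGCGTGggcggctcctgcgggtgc
Pdk1: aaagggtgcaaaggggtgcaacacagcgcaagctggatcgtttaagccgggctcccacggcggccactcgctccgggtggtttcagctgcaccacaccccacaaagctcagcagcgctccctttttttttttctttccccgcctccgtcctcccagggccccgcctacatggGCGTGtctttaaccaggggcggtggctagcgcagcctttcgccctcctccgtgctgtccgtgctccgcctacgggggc
Ldha: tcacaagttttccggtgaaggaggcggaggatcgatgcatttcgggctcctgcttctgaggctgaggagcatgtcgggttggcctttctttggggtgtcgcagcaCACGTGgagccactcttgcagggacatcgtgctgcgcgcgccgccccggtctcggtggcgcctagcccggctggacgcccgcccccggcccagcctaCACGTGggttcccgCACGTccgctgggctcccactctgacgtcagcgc
The stretch of Bnip3 holds 2 matches of ACGTG and 3 of GCGTG, that of Ldha 5 of ACGTG, that of Pfkp 3 of GCGTG and that of Pdk1 1 of GCGTG. Each palindrome CACGTG counts as 2 matches of ACGTG, 1 per strand. Bnip3 holds 1 such palindrome and Ldha 2, so there are fewer sites than matches.

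On GRCm38 the genes lie on 9 chromosomes. All are protein-coding in the GENCODE annotation, where Ndufa4l2 spans chr10:127514967-127517154, Slc2a1 chr4:119108711-119137983, Hk2 chr6:82725025-82774454, Pfkp chr13:6579768-6648777 and Pgk1 chrX:106187100-106203699. Ldha spans chr7:46841475-46855627 and shares its chromosome with Bnip3 at chr7:138890836-138909519, and Pdk1 spans chr2:71873224-71903858, Egln3 chr12:54178981-54203860 and Ankrd37 chr8:45996902-46005707.

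Per transcript length, the levels of the 10 genes differed widely in cells without a deletion. The deposited TPM (transcript abundance scaled for transcript length and depth) was highest for Ldha, lactate dehydrogenase A, at 1174 ± 9.2 in set A, 1523 ± 54 in set B and 1302 ± 9.62 in Setdb1 F/F (SD, n = 3 each). Pgk1, phosphoglycerate kinase, followed with 736 ± 10.5, 1035 ± 28.6 and 798 ± 4.98 TPM in the same order. Slc2a1, the glucose transporter GLUT1, came after it in each, at 188 ± 7.13, 295 ± 18.6 and 216 ± 3.55 TPM. Ndufa4l2, a mitochondrial protein related to NDUFA4, was the lowest of the 10 in both wild-type sets, with 9.52 ± 0.751 and 27.3 ± 1.66 TPM. In Setdb1 F/F it had 51.4 ± 5.01 TPM, above Egln3 (21.7 ± 1.08) and Ankrd37 (10.7 ± 2.11). Hk2 (69.5 ± 1.52) and Pfkp (72 ± 2.6) were neighbours in Setdb1 F/F that lay within their spread. The order of the 10 genes was the same in sets A and B.

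**Figure D1:**
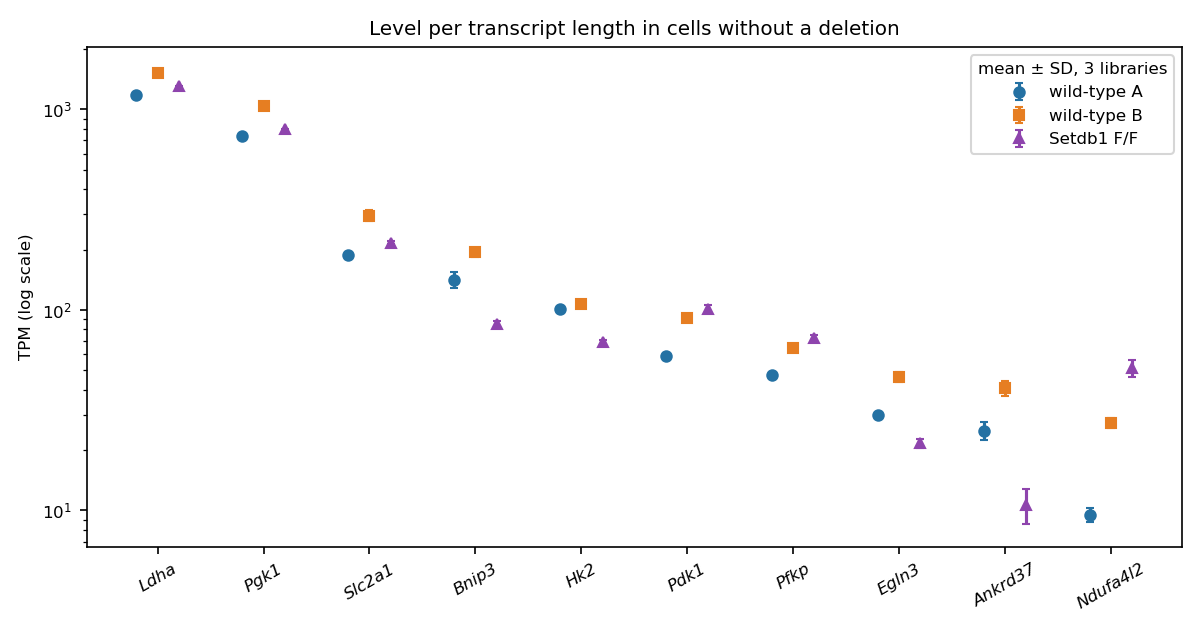
Deposited TPM (log axis) of each gene in the 3 conditions without a deletion, as mean ± SD over 3 libraries, with genes ordered by wild-type set A. Ldha is highest in each, at 1174, 1523 and 1302 TPM, and Ndufa4l2 runs from 9.52 TPM in set A to 51.4 in Setdb1 F/F.

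The wild-type sets were compared first, since every single and double knockout is read against one of them. All 10 genes were higher in set B than in set A, and 9 of 10 passed an adjusted p of 0.05 in the quasi-likelihood test of edgeR (Benjamini-Hochberg adjustment), beside 12.3% of all genes that were higher by this criterion. A gene is called below where its log2 fold change also exceeds 1 in size. By that rule only Ndufa4l2 was called, 1 of 10 higher beside 2.55% of all 16008 genes tested, and none lower beside 3.12%. In CPM Ndufa4l2 had 4.49, 3.74 and 4.42 in set A and 11.4, 11.8 and 12.6 in set B. The sets did not overlap, and the log2 fold change was 1.51 ± 0.13 (SE, adjusted p = 2.63e-07). The other log2 fold changes ran from 0.054 for Hk2, hexokinase 2 (SE 0.038, adjusted p = 0.344), to 0.80 for Ankrd37, an ankyrin repeat protein (SE 0.098, adjusted p = 1.75e-05). Between them lay Pgk1 (0.47), Ldha (0.33), Pfkp (0.46), Bnip3 (0.63), Slc2a1 (0.66), Pdk1 (0.34) and Egln3 (0.59). The median over the 10 genes was 0.53, and over all genes tested 0.0031. For the 10 genes, the single and double knockouts are therefore read against both sets below.

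In the triple knockout all 10 genes were lower than in set A and lower than in Hp1α/β Δ/Δ ESCs, with no overlap of libraries for any of them. Ndufa4l2 had 0.134, 0.248 and 0.0401 CPM in the triple knockout, from 3, 5 and 1 counts, against 10.1, 14.4 and 13.8 CPM in Hp1α/β Δ/Δ ESCs and the set A values above. No other condition had a lower mean for this gene. Summed over libraries, its level was 31.6-fold lower than in set A, with an exact 95% interval of 16.4 to 69.8, and 96.6-fold lower than in Hp1α/β Δ/Δ ESCs (50.7 to 212). These intervals cover counting error only. The fitted log2 fold change relative to set A was -4.94 ± 0.40 (SE).

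Bnip3, a mitochondrial receptor for mitophagy, had 10.3, 11.4 and 9.71 CPM in the triple knockout and 101, 102 and 105 CPM in set A. The groups lay far apart, with a log2 fold change of -3.33 ± 0.062 (SE). Among glycolytic enzymes, Pfkp, the platelet-type phosphofructokinase, had 27.6, 28.1 and 30 CPM against 164, 161 and 169.5 CPM, a log2 fold change of -2.55 ± 0.046 (SE). Ldha had 273, 277 and 265 CPM against 1176, 1158 and 1166 CPM, a log2 fold change of -2.13 ± 0.022 (SE). Replicates of this abundant gene lay close together in both groups. Pgk1 and Hk2 had log2 fold changes of -1.93 ± 0.025 and -1.52 ± 0.029 (SE), and the latter was the smallest difference of the 10.

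Slc2a1 had 119, 119 and 109 CPM in the triple knockout against 402, 418 and 414 CPM in set A, a log2 fold change of -1.86 ± 0.034 (SE). Pdk1, a kinase that inactivates pyruvate dehydrogenase, had 32, 35.6 and 31.3 CPM against 187, 181 and 187 CPM, a log2 fold change of -2.52 ± 0.045 (SE). Egln3, the prolyl hydroxylase PHD3 and itself a HIF target, had a log2 fold change of -1.87 ± 0.062 (SE), and Ankrd37 of -1.66 ± 0.14 (SE). All 10 were past both thresholds, beside 17.1% of all 17501 genes called lower (25.1% were called higher). Relative to Hp1α/β Δ/Δ ESCs the log2 fold changes ran from -1.50 for Hk2 to -6.55 for Ndufa4l2. They were -3.80 for Bnip3, -3.51 for Pfkp, -2.71 for Pdk1, -2.30 for Ldha, -2.42 for Slc2a1, -2.24 for Pgk1, -1.91 for Egln3 and -1.79 for Ankrd37. There too 10 of 10 were past the thresholds, beside 16% of all genes lower and 25.4% higher. With set B as the control 10 of 10 were past them as well, beside 18.6% lower and 25.6% higher. The genes were chosen on the triple knockout libraries, and nothing is read from these counts.

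**Figure D2:**
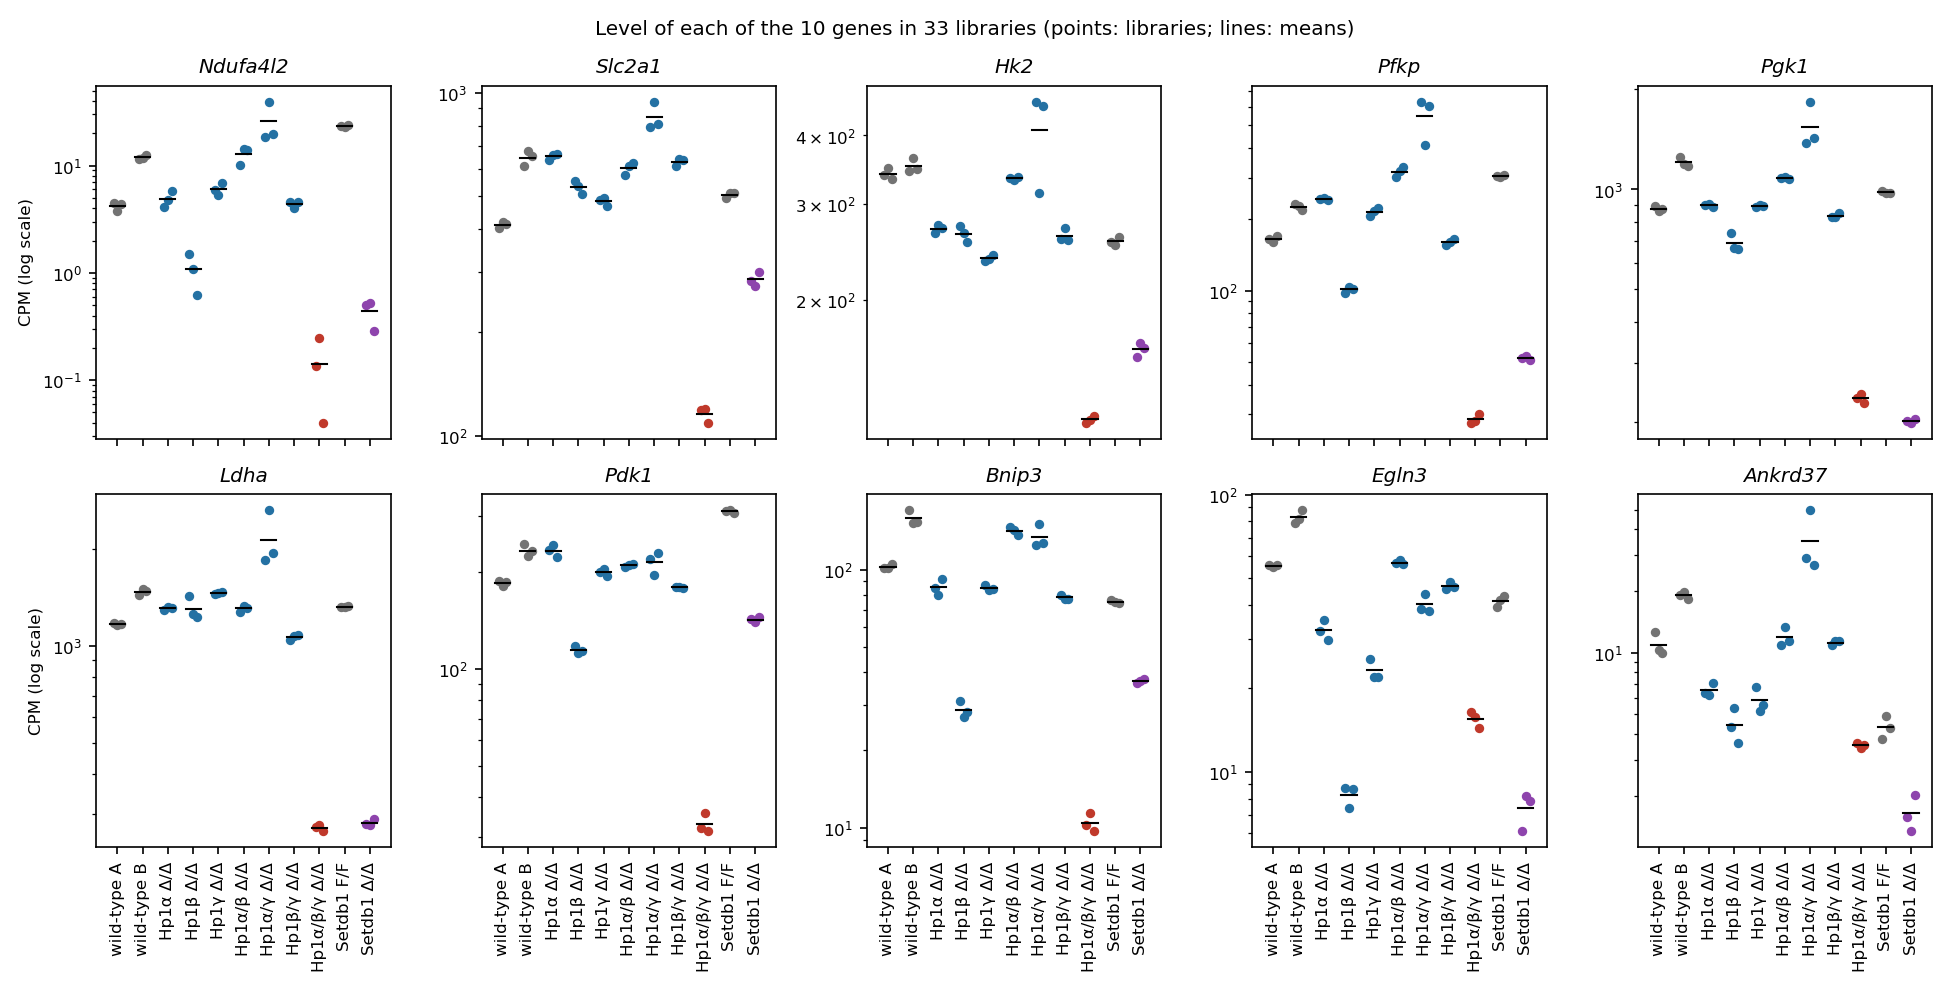
CPM (log axes, which differ between panels) of each gene in every library, grouped by condition, where points are libraries and short lines are means. Libraries of Hp1α/β/γ Δ/Δ (red) and Setdb1 Δ/Δ (purple) lie below those of their controls in every panel, and libraries of Hp1β Δ/Δ stand low for Ndufa4l2, Bnip3 and Egln3.

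Several measures of the whole libraries moved with these values, and their part in them was not tested. The summed CPM of 10 ESC markers ran from 1883 to 1947 in the triple knockout and from 4250 to 4309 in set A, and from 5031 to 5082 in Setdb1 Δ/Δ against 6843 to 6867 in Setdb1 F/F, with none of the 10 at 0. Not every marker moved with its sum. In the triple knockout 8 of 10 lay below set A without overlap, Esrrb lay above it (390.4 against 327 CPM on average) and Zfp42 overlapped (61.6 and 58.9). Setdb1 Δ/Δ cells had 7 of 10 below Setdb1 F/F, and Zfp42 (535 against 335), Sox2 (626 against 567) and Sall4 (352 against 347) above it. The summed CPM of 10 fibroblast markers of the feeders was at most 50.6 in any library, with Fap at 0 in all of them. It ran from 10.2 to 11.1 in the triple knockout, 24.3 to 25.5 in set A, 42.2 to 50.6 in set B, 10.1 to 11.4 in Setdb1 F/F and 4.72 to 5.95 in Setdb1 Δ/Δ. Most of these 10 markers did not follow the sum. In the triple knockout 3 lay below set A without overlap, 2 lay above it and 5 overlapped. In Setdb1 Δ/Δ 3 lay below Setdb1 F/F, 1 lay above it and 6 overlapped. Those above were Col3a1 in the triple knockout (4.39 against 0.731 CPM) and in Setdb1 Δ/Δ (0.228 against 0.0186), and Lum in the triple knockout (0.164 against 0). In bulk RNA, fewer cells of a type and less RNA per cell cannot be told apart. Mitochondrial genes took 0.90% to 0.97% of counts in the triple knockout and 2.63% to 2.75% in set A, 1.95% to 2.26% in set B, 1.92% to 2.01% in Setdb1 Δ/Δ and 2.27% to 2.30% in Setdb1 F/F. In the triple knockout the median log2 fold change of chromosome 8, where Ankrd37 lies, was 0.52 above that of the other chromosomes, and that of chromosome 6, where Hk2 lies, 0.36 above. Scaling by total counts moved the median of all genes from 0.035 to 0.28 in the triple knockout and from 0.015 to 0.28 in Setdb1 Δ/Δ, while all 10 genes stayed lower in both.

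The targeted transcripts were examined in the same libraries. Cbx1 (HP1β) ran from 43.9 to 49.3 CPM in the triple knockout against 430.2 to 445 in set A, and Cbx3 (HP1γ) from 61.7 to 66.2 against 173 to 186. Cbx5 (HP1α) was reduced less, to between 278 and 287 CPM against 478 to 489, and lay between 199.9 and 208 in Hp1α/β Δ/Δ ESCs. Setdb1 ran from 68.5 to 72 CPM in Setdb1 Δ/Δ against 130.0 to 135 in Setdb1 F/F. Total counts ran from 17330936 to 25743149 per library. Libraries of a condition had a mean r of 0.995 to 0.997 with each other, except in Hp1α/γ Δ/Δ, where replicate 2 had 0.982.

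In Setdb1 Δ/Δ cells all 10 genes were also lower than in Setdb1 F/F ESCs, with no overlap of libraries, but the order of the differences was another. Ndufa4l2 had 0.504, 0.526 and 0.286 CPM against 23.3, 22.9 and 23.9 CPM, a log2 fold change of -5.73 ± 0.15 (SE). Its level in Setdb1 F/F was above that of both wild-type sets. Pfkp (-2.56 ± 0.029), Egln3 (-2.49 ± 0.084), Pgk1 (-2.29 ± 0.020) and Ldha (-2.24 ± 0.020) followed, as log2 fold change ± SE. Egln3 had 6.1, 8.18 and 7.87 CPM against 39.1, 41.6 and 43.2 CPM. Ldha had 279, 277 and 289 CPM against 1316, 1319.6 and 1325 CPM, and its Setdb1 Δ/Δ libraries overlapped those of the triple knockout. Bnip3, next to Ndufa4l2 in the triple knockout, had 36.3, 37.1 and 37.7 CPM against 76.3, 74.8 and 74.3 CPM, a log2 fold change of -1.03 ± 0.040 (SE). Ankrd37 had -1.40 ± 0.20, Slc2a1 -0.83 ± 0.029 and Hk2 -0.66 ± 0.027, and Slc2a1 and Hk2 did not reach the fold threshold. In all, 8 of 10 were past both thresholds, beside 11.4% of all 16457 genes called lower (18.5% were called higher).

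Pdk1 (-1.13 ± 0.025) and Bnip3 were close to the fold threshold in Setdb1 Δ/Δ, and with scaling by total counts they lay inside it, at -0.86 and -0.76, leaving 6 of 10. The share of all genes called with that scaling is not given here. The deposited TPM gave smaller differences, with Bnip3 going from 85.1 to 63.2 TPM and Hk2 from 69.5 to 62.3 TPM. For Pfkp the log2 ratio of mean TPM was -1.46 in Setdb1 Δ/Δ, against -2.56 from the counts. There the ratio was under 1 in size for Ankrd37 (-0.97), Pdk1 (-0.67), Bnip3 (-0.43), Slc2a1 (-0.35) and Hk2 (-0.16). It was over 1 in size for the other genes. In the triple knockout the log2 ratios of mean TPM ran from -1.14 for Hk2 to -4.74 for Ndufa4l2. Counts that are not whole numbers, which arise where reads are shared between transcripts, were found for Bnip3 in 33 of 33 libraries, for Pfkp in 32, for Pgk1 in 27 and for Ldha in 17. Pgk1 and Ldha also have 3 and 2 named copies in the annotation, so their counts are less certain.

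**Figure D3:**
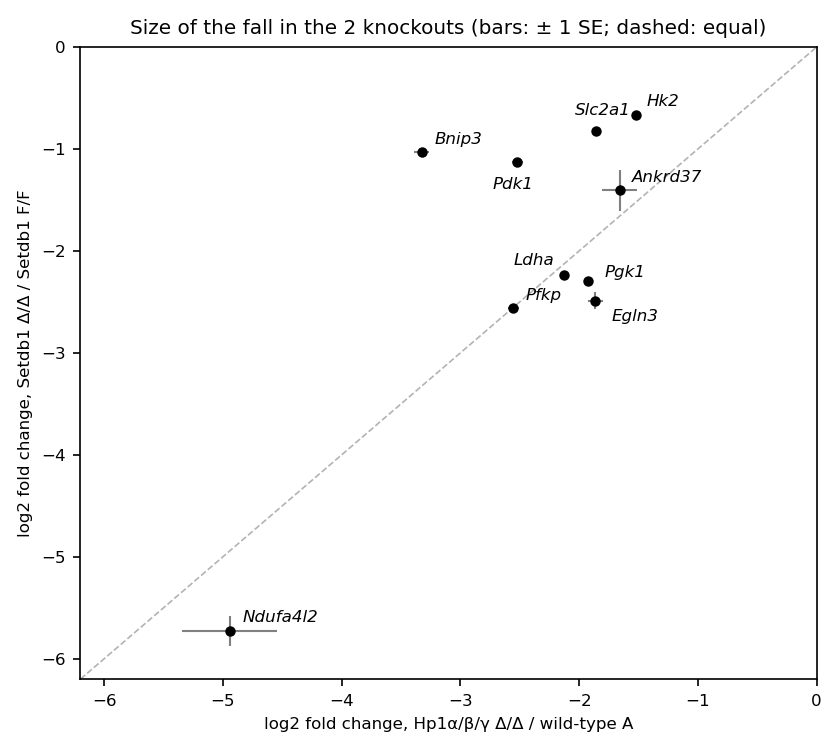
The log2 fold change of each gene in Hp1α/β/γ Δ/Δ against wild-type set A (x axis) and in Setdb1 Δ/Δ against Setdb1 F/F (y axis), with bars of ± 1 SE and a dashed line where both are equal. Bnip3, Pdk1, Slc2a1 and Hk2 lie above the line, with smaller differences in Setdb1 Δ/Δ, and Pfkp and Ldha lie close to it.

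The difference between both effects was estimated in a fit of the 12 libraries and is given without a test for these genes. As the controls are unlike, a difference between set A and Setdb1 F/F cannot be told apart from one between the knockouts. The log2 difference, triple knockout minus Setdb1 Δ/Δ, was -2.32 ± 0.071 for Bnip3, -1.42 ± 0.050 for Pdk1, -1.06 ± 0.047 for Slc2a1 and -0.88 ± 0.039 for Hk2 (SE). For Pfkp it was -0.021 ± 0.052 and for Ldha 0.082 ± 0.028. Egln3 (0.60 ± 0.11) and Pgk1 (0.34 ± 0.032) were reduced more in Setdb1 Δ/Δ. For Ankrd37 it was -0.28 ± 0.25. For Ndufa4l2 the difference was 0.76 ± 0.61, which at 1 to 5 counts per triple knockout library does not separate the effects.

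Without HP1β alone, most of the genes were lower. In this comparison, as in those of the other single and double knockouts, the genes were tested, although set A is shared with the contrast that chose them and the comparisons share their controls. In Hp1β Δ/Δ ESCs 4 of 10 genes fell relative to set A, beside 6.36% of all 15845 genes, and none rose beside 2.75%. Egln3 had 8.76, 7.4 and 8.63 CPM against 55.7, 54.6 and 55.6 CPM in set A, a log2 fold change of -2.76 ± 0.075 (SE, adjusted p = 1.35e-09). All 3 of these libraries were below those of the triple knockout (14.4 to 16.4 CPM). Ndufa4l2 had 1.51, 1.1 and 0.627 CPM, a log2 fold change of -1.99 ± 0.29 (SE, adjusted p = 0.000184). Bnip3 had 30.9, 26.8 and 28.1 CPM, a log2 fold change of -1.86 ± 0.058 (SE, adjusted p = 4.15e-09). Ankrd37 had 4.33, 5.34 and 3.61 CPM against 12.5, 10.3 and 10 CPM, a log2 fold change of -1.32 ± 0.16 (SE, adjusted p = 4.89e-05). No Hp1β Δ/Δ library overlapped set A for these 4 genes.

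The genes not called relative to set A in Hp1β Δ/Δ ESCs all had negative log2 fold changes relative to set B, with -0.42 for Hk2 and -0.83 for Pgk1. Relative to set A they did not share one direction. Pfkp (-0.72 ± 0.047), Pdk1 (-0.71 ± 0.042), Hk2 (-0.38 ± 0.037) and Pgk1 (-0.36 ± 0.039) had negative log2 fold changes (± SE) inside the fold threshold, at adjusted p of 1.93e-05 or less. Slc2a1 (0.35 ± 0.036, adjusted p = 1.55e-05) and Ldha (0.14 ± 0.045, adjusted p = 0.0223) were higher than in set A but lower than in set B, at -0.30 and -0.18. Relative to set B, Pfkp (-1.17 ± 0.054, adjusted p = 3.12e-08) and Pdk1 (-1.04 ± 0.053, adjusted p = 6.66e-08) fell too, which made 6 of 10 lower beside 9.61% of all genes, and 0 higher beside 5.64%. In the triple knockout all 10 genes had their 3 libraries below all 6 wild-type libraries, beside 31.9% of all genes, and 0 above beside 37.2%. In Hp1β Δ/Δ ESCs 8 of 10 genes had them below, beside 19.6% of all genes, and none had them above beside 20.2%. The exceptions were Slc2a1 and Ldha. In the deposited TPM the counts were the same, 10 of 10 below in the triple knockout beside 19.7% of all genes and 8 of 10 in Hp1β Δ/Δ ESCs beside 18.8%.

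Without HP1α or HP1γ alone the genes differed less, and relative to set A in both directions. In Hp1α Δ/Δ ESCs 0 of 10 genes were called by edgeR and 0 by DESeq2, beside 1.56% of all genes higher and 3.31% lower, although 9 of 10 had an unadjusted and 8 an adjusted p under 0.05, beside 45% of all genes by the latter. The log2 fold changes farthest from 0 were those of Egln3 (-0.76 ± 0.057, adjusted p = 1.23e-09), Ankrd37 (-0.73 ± 0.13, adjusted p = 7.65e-05), Slc2a1 (0.67 ± 0.024, adjusted p = 1.87e-14) and Pfkp (0.57 ± 0.031, adjusted p = 1.03e-11). Bnip3 (-0.26), Hk2 (-0.32), Pgk1 (0.043), Ldha (0.17) and Pdk1 (0.34) lay closer to 0. In Hp1γ Δ/Δ ESCs Egln3 fell, with 25.6, 22 and 22 CPM and a log2 fold change of -1.25 ± 0.061 (SE, adjusted p = 6.76e-12). It was 1 of 10 genes, beside 3.55% of all genes lower and 2.04% higher. Ankrd37 was next (-0.91 ± 0.14, adjusted p = 2.2e-05) and was called without Hp1γ Δ/Δ replicate 1, at -1.03. The others were Bnip3 (-0.28), Hk2 (-0.51), Slc2a1 (0.23), Pfkp (0.39), Pgk1 (0.029), Ldha (0.32) and Pdk1 (0.12).

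Hk2, Bnip3, Egln3 and Ankrd37 had all 3 libraries below all 6 wild-type libraries in each of these single knockouts, 4 of 10 genes beside 15.3% of all genes for Hp1α Δ/Δ and 16.9% for Hp1γ Δ/Δ. Pfkp lay above all 6 in Hp1α Δ/Δ, 1 of 10 beside 14.3%, and none of the 10 did in Hp1γ Δ/Δ, beside 15.7%. For Ndufa4l2 the direction depended on the wild-type set. Against set A its log2 fold changes were 0.23 ± 0.18 in Hp1α Δ/Δ (SE, adjusted p = 0.324) and 0.51 ± 0.17 in Hp1γ Δ/Δ (SE, adjusted p = 0.0173), and against set B they were -1.27 and -0.98. With set B, 3 of 10 genes fell in Hp1α Δ/Δ, Ndufa4l2, Egln3 (-1.33 ± 0.065, adjusted p = 2.01e-10) and Ankrd37 (-1.52 ± 0.10, adjusted p = 7.97e-09), beside 5.34% of all genes, and 0 rose beside 3.68%. In Hp1γ Δ/Δ 2 of 10 fell, Egln3 (-1.82 ± 0.068, adjusted p = 1.14e-10) and Ankrd37 (-1.70 ± 0.11, adjusted p = 3.82e-08), beside 6.21%, and 0 rose beside 4.41%. Relative to set B, only Ldha (0.0070) had a positive log2 fold change in Hp1γ Δ/Δ. In Hp1α Δ/Δ those of Slc2a1 (0.028), Pfkp (0.12) and Pdk1 (0.016) were positive, and the others were negative.

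In Hp1α/β Δ/Δ ESCs none of the genes lay below both wild-type sets. Ndufa4l2 rose relative to set A, with a log2 fold change of 1.59 ± 0.15 (SE, adjusted p = 1.33e-07), 1 of 10 genes beside 2.96% of all genes higher, and none fell beside 5.19%. Relative to set B its log2 fold change was 0.091, which ended the call, and 0 of 10 genes were called, beside 4.73% of all genes higher and 6.37% lower. Pfkp had 303, 320.1 and 333 CPM, a log2 fold change of 0.94 ± 0.040 (SE, adjusted p = 4.41e-12) relative to set A. It was the 1 gene of 10 with all libraries above all 6 wild-type libraries, beside 15% of all genes, and none lay below them, beside 14.5%. Bnip3 had 147, 142 and 136 CPM, between the wild-type sets, and Egln3 56.6, 57.9 and 56 CPM, a log2 fold change of 0.031 ± 0.047 relative to set A (SE, adjusted p = 0.617). The other log2 fold changes relative to set A were 0.54 for Slc2a1, 0.15 for Ldha, 0.30 for Pgk1, 0.18 for Pdk1, 0.46 for Bnip3, 0.12 for Ankrd37 and -0.033 for Hk2.

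Hp1β/γ Δ/Δ ESCs had negative log2 fold changes relative to set B for all 10 genes, of which 9 had an adjusted p under 0.05, beside 25.7% of all genes that were lower by this criterion. Ndufa4l2 had 4.57, 4.05 and 4.61 CPM and fell, with a log2 fold change of -1.44 ± 0.11 (SE, adjusted p = 4.33e-08). Bnip3 had 80, 77.2 and 76.9 CPM against 169, 152 and 153 CPM and fell too, with -1.02 ± 0.053 (SE, adjusted p = 3.98e-10). These were 2 of 10 genes, beside 4.54% of all 16263 genes lower and 7.32% higher. Without set B replicate 1, Bnip3 lay inside the fold threshold, at -0.97. Relative to set A no gene was called (0 of 10), beside 9.89% of all genes higher and 7.62% lower, and the log2 fold change of Ndufa4l2 was 0.066. The other log2 fold changes relative to set B were -0.82 for Egln3, -0.38 for Pdk1, -0.54 for Pgk1, -0.77 for Ankrd37, -0.47 for Ldha, -0.49 for Pfkp, -0.42 for Hk2 and -0.043 for Slc2a1. Hk2, Pgk1, Ldha, Pdk1, Bnip3 and Egln3 had all 3 libraries below all 6 wild-type libraries, 6 of 10 beside 18.9% of all genes, and none had them above beside 20.7%. In the deposited TPM it was 5 of 10, without Pdk1.

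Hp1α/γ Δ/Δ ESCs had the highest mean CPM of the 11 conditions for 7 of the 10 genes, Ndufa4l2, Slc2a1, Hk2, Pfkp, Pgk1, Ldha and Ankrd37, but their replicate 2 stood apart. By mean deposited TPM they were highest for 5, since Pgk1 was higher in set B (1035 against 983 TPM) and Ndufa4l2 in Setdb1 F/F (51.4 against 41.1). Ndufa4l2 had 18.3, 39.1 and 19.9 CPM, Ankrd37 29, 49.4 and 26.8 CPM and Ldha 1843, 2631 and 1935 CPM. Replicates 1 and 3 of Ndufa4l2 lay below the Setdb1 F/F libraries (22.9 to 23.9 CPM), so its rank rests on replicate 2. In CPM replicate 2 was the highest for these genes and the lowest for Pfkp (627, 411 and 604 CPM). In TPM it was the highest for Ndufa4l2 (36, 50.3 and 36.9) and Ankrd37 (55.5, 59.9 and 49.2) but the lowest for Ldha (1650.4, 1532 and 1697) and Pfkp (142, 93 and 141). Relative to set B, Pfkp (1.24 ± 0.19, adjusted p = 0.00183) and Ndufa4l2 (1.05 ± 0.27, adjusted p = 0.0154) rose and Egln3 (-1.09 ± 0.10, adjusted p = 0.000261) fell, as log2 fold change ± SE. These were 2 and 1 of 10 genes, beside 6.75% of all genes higher and 16.3% lower. Without replicate 2 the value of Ndufa4l2 was 0.67 (adjusted p = 3.46e-05), which ended its call, and those of Pfkp and Egln3 were 1.44 and -1.11. Relative to set A, 4 of 10 genes rose, Ndufa4l2 (2.56 ± 0.30, adjusted p = 0.000667), Pfkp (1.71 ± 0.19, adjusted p = 0.000551), Ankrd37 (1.64 ± 0.23, adjusted p = 0.00152) and Slc2a1 (1.01 ± 0.088, adjusted p = 0.000228), beside 8.97% of all genes, and 0 fell beside 17.2%. With all libraries, log2 fold changes relative to set B were 0.83 for Ankrd37, 0.35 for Slc2a1, 0.50 for Ldha, 0.18 for Hk2, 0.31 for Pgk1, -0.16 for Pdk1 and -0.28 for Bnip3.

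The call of Ndufa4l2 in Hp1α/γ Δ/Δ also ended with each set B replicate left out in turn, at 1.02, 1.04 and 1.09 with adjusted p of 0.0649, 0.0609 and 0.0501. Ndufa4l2, Slc2a1, Pfkp, Pgk1, Ldha and Ankrd37 lay above all 6 wild-type libraries in all 3 libraries of these cells in CPM, 6 of 10 beside 21.9% of all genes, and Egln3 below them, 1 of 10 beside 24%. In the deposited TPM the 6 became 3, Ndufa4l2, Pfkp and Ankrd37, beside 7.82% of all genes, and Egln3 lay below, 1 of 10 beside 33.9%. Pgk1 (1017, 894 and 1038 TPM against 1010.3 to 1066 in set B), Slc2a1 (313, 258 and 319 against 275 to 312) and Ldha (at most 1569 TPM in set B) overlapped set B on that scale. The summed CPM of the ESC markers ran from 6421 to 9071 in these cells, with the highest value in replicate 2, and its part was not tested.

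**Figure D4:**
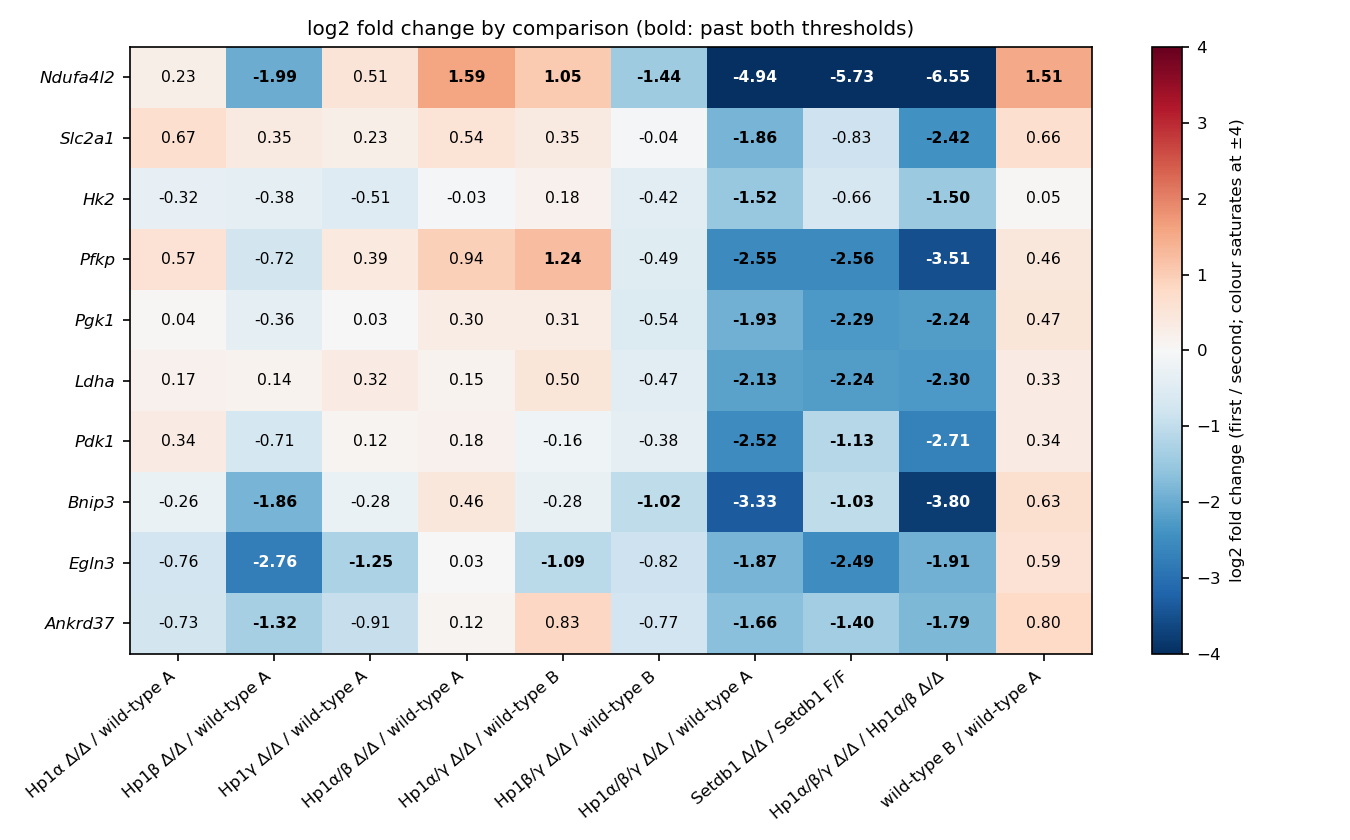
The log2 fold change of each gene (rows) in 10 comparisons (columns, first condition over second), with values printed, bold where both thresholds were passed, and colour from blue (lower) to red (higher). The last column shows that all 10 genes were higher in wild-type set B than in set A, by up to 1.51 for Ndufa4l2.

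Across the 11 conditions the genes had unlike orders, given here in CPM. The triple knockout had the lowest mean for Ndufa4l2, Slc2a1, Hk2, Pfkp, Ldha, Pdk1 and Bnip3, and Setdb1 Δ/Δ for Pgk1, Egln3 and Ankrd37. The lowest condition overlapped the next for Ldha, where these were both knockouts, and for Egln3, where Setdb1 Δ/Δ (6.1 to 8.18 CPM) overlapped Hp1β Δ/Δ (7.4 to 8.76 CPM). By mean deposited TPM, Hp1β Δ/Δ was the lowest for Egln3. Hp1β Δ/Δ ranked just above these knockouts for Ndufa4l2, Pfkp and Pgk1 and was lowest but one for Pdk1, Bnip3 and Egln3. The highest mean was that of Setdb1 F/F for Pdk1 and of set B for Bnip3 and Egln3. For Ndufa4l2, neighbours overlapped in turn from Hp1γ Δ/Δ (6.01 CPM on average) over Hp1α Δ/Δ (4.91) and Hp1β/γ Δ/Δ (4.41) to set A (4.22).

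The genes whose pattern was most like that of Ndufa4l2 were sought among 13558 genes by the Pearson r of log2(CPM + 1) over the 33 libraries, which share conditions and scaling. They were Pgm1 (r = 0.933), a phosphoglucomutase, Tst (r = 0.930), a mitochondrial sulfurtransferase, Lrrc31 (r = 0.929), Pfkp (r = 0.923) and Bcat1 (r = 0.923), a branched-chain aminotransferase. For the other 8 genes described here r ran from 0.698 for Ankrd37 to 0.871 for Pgk1. Pgm1 had 22.3 CPM on average in the triple knockout and 32.8 in Setdb1 Δ/Δ, against 76.2 in set A and 92.9 in Setdb1 F/F.

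The other genes of the pathway come from 8 lists with 91 genes. These lists were chosen with earlier results of these data known. Their adjusted p in the triple knockout and in Setdb1 Δ/Δ describe these libraries and are no independent support. In the triple knockout 39 of the 87 tested fell and 5 rose relative to set A, and in Setdb1 Δ/Δ 25 of 81 fell and 5 rose, beside the shares of all genes given above. The medians were -0.91 and -0.65. For the triple knockout relative to Hp1α/β Δ/Δ ESCs, 38 of 86 fell and 4 rose, beside 16% and 25.4% of all genes. Counts were lower without HP1β alone, where 11 of 85 fell and 4 rose, beside 6.36% and 2.75% of all genes. In Hp1α Δ/Δ 3 of 85 fell and 1 rose, beside 3.31% and 1.56%, and in Hp1γ Δ/Δ 4 of 85 fell and 1 rose, beside 3.55% and 2.04%. In Hp1α/β Δ/Δ 5 of 85 fell and 4 rose, beside 5.19% and 2.96%, in Hp1α/γ Δ/Δ 11 of 86 fell and 5 rose, beside 16.3% and 6.75%, and in Hp1β/γ Δ/Δ 3 of 84 fell and 3 rose, beside 4.54% and 7.32%. With the other wild-type set, 19 fell and 2 rose in Hp1β Δ/Δ, beside 9.61% and 5.64%. It was 5 and 1 in Hp1α Δ/Δ (5.34% and 3.68%) and 7 and 1 in Hp1γ Δ/Δ (6.21% and 4.41%). It was 5 and 3 in Hp1α/β Δ/Δ (6.37% and 4.73%), 11 and 8 in Hp1α/γ Δ/Δ (17.2% and 8.97%) and 4 and 7 in Hp1β/γ Δ/Δ (7.62% and 9.89%). Values of single pathway genes in these knockouts are given only relative to the set of the deposited tables. Of the 14 other glycolytic enzymes, 9 fell and 1 rose in the triple knockout, beside 17.1% and 25.1% of all genes. Their median log2 fold change was -1.25. The falls were led by the aldolases Aldoc (-2.42 ± 0.090, adjusted p = 5.93e-15) and Aldoa (-2.12 ± 0.027, adjusted p = 5.54e-22) and by Gpi1, glucose-6-phosphate isomerase (-2.02 ± 0.025, adjusted p = 4.03e-22), as log2 fold change ± SE. Eno2, the neuronal enolase, rose by 2.37 ± 0.11 (SE, adjusted p = 2.24e-13). Aldoa is listed in 2 rows of the tables, so its value is uncertain.

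In Setdb1 Δ/Δ 10 of the 14 enzymes fell and 1 rose, beside 11.4% and 18.5% of all genes, with a median of -1.31. Aldoa (-2.13 ± 0.019, adjusted p = 3.67e-22), the enolase Eno1 (-1.89 ± 0.018, adjusted p = 7.34e-22) and Aldoc (-1.79 ± 0.083, adjusted p = 1.52e-12) led the falls, and Eno3, the muscle enolase, rose by 1.56 ± 0.052 (SE, adjusted p = 1.18e-14). Relative to Hp1α/β Δ/Δ ESCs the triple knockout had 12 of 14 lower and 1 higher, beside 16% and 25.4% of all genes. Aldoc (-3.21), Aldoa (-2.55) and Gpi1 (-2.25) led these falls, and Eno2 was the rise (1.96). In Hp1α/β Δ/Δ ESCs themselves Ldhb, lactate dehydrogenase B, rose (1.49 ± 0.035, adjusted p = 1.32e-15), and Eno2 fell in Hp1α/γ Δ/Δ ESCs (-1.39 ± 0.16, adjusted p = 0.000597).

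Of the HIF factors and oxygen sensors, 4 of 10 fell in the triple knockout, beside 17.1% of all genes, and 3 of 10 in Setdb1 Δ/Δ, beside 11.4%. In the triple knockout they were Epas1, which encodes HIF-2α (-2.61 ± 0.072, adjusted p = 5.2e-17), Arnt2 (-1.82 ± 0.14, adjusted p = 3.68e-10), Egln1, the main oxygen-sensing hydroxylase (-1.31 ± 0.071, adjusted p = 1.95e-12), and Hif3a (-1.26 ± 0.097, adjusted p = 4.55e-10). In Setdb1 Δ/Δ they were Egln1 (-1.90 ± 0.083, adjusted p = 5.88e-13), Hif3a (-1.58 ± 0.12, adjusted p = 2.35e-09) and Arnt2 (-1.11 ± 0.15, adjusted p = 1.96e-06). Hif1a, named after its values were seen, was called in neither. It had 223, 229 and 234 CPM in the triple knockout against 139.6, 127 and 137 CPM in set A (log2 fold change 0.74 ± 0.035), and 197, 193 and 194 CPM in Setdb1 Δ/Δ against 184, 180.4 and 186 CPM in Setdb1 F/F (0.074 ± 0.025). HIF activity is set mostly at the protein level, which was not measured here.

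The same list had 3 falls of 10 genes in Hp1β Δ/Δ ESCs, beside the 6.36% of all genes that fell there, Egln1 (-1.24 ± 0.074), Arnt2 (-1.07 ± 0.13) and Hif3a (-1.03 ± 0.11), at adjusted p of 5.64e-05 or less. Arnt2 fell in all 3 double knockouts, with log2 fold changes of -1.99 in Hp1α/γ Δ/Δ, -1.03 in Hp1β/γ Δ/Δ and -1.61 in Hp1α/β Δ/Δ. Epas1 fell in Hp1α/β Δ/Δ (-1.13), and Hif3a in Hp1α/γ Δ/Δ (-1.72) and Hp1γ Δ/Δ (-1.08). Relative to Hp1α/β Δ/Δ ESCs, Egln1 (-1.54) and Epas1 (-1.50) fell in the triple knockout.

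Of 30 other HIF target genes, 17 fell and 2 rose in the triple knockout (median -1.16), and 6 of 27 tested fell and 3 rose in Setdb1 Δ/Δ (median -0.61). Over all genes 17.1% fell and 25.1% rose in the triple knockout, and 11.4% and 18.5% in Setdb1 Δ/Δ. Vegfa, the angiogenic growth factor, had 6.67, 6.75 and 6.18 CPM in the triple knockout against 41.1, 42.6 and 37.8 CPM in set A, and 10.5, 9.81 and 10.6 CPM in Setdb1 Δ/Δ against 82.7, 91.5 and 79.6 CPM in Setdb1 F/F. Its log2 fold changes were -2.66 ± 0.082 (SE, adjusted p = 3.24e-16) and -3.05 ± 0.066 (SE, adjusted p = 3.16e-17). Cox4i2 (-2.54 ± 0.50, adjusted p = 0.000118) and Loxl2 (-2.45 ± 0.11, adjusted p = 1.29e-13) followed in the triple knockout, where Pfkfb3, which makes the activator of phosphofructokinase (1.73 ± 0.058, adjusted p = 1.1e-15), and Hmox1, heme oxygenase (1.33 ± 0.036, adjusted p = 4.54e-17), rose. In Setdb1 Δ/Δ Ndrg1 (-3.01 ± 0.11) and Car9, carbonic anhydrase IX (-2.48 ± 0.46), fell, and Plod2 (2.17 ± 0.034) and Hmox1 (1.27 ± 0.035) were among the genes that rose, at adjusted p of 0.000106 or less. Relative to Hp1α/β Δ/Δ ESCs 14 of 29 fell in the triple knockout, beside 16% of all genes, Vegfa (-3.16) and Loxl2 (-2.65) among them, and Hmox1 rose (1.17).

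In Hp1β Δ/Δ ESCs 7 of these 30 targets fell and 2 rose (6.36% and 2.75% of all genes), with a median of -0.32 against -0.032 for all genes. Adm, the vasodilator peptide adrenomedullin (-3.15 ± 0.26), Vegfa (-1.58 ± 0.11) and Car9 (-1.57 ± 0.48) fell most, and Hmox1 (1.02 ± 0.055) was among those that rose, at adjusted p of 0.0172 or less. Adm also fell in the other single and double knockouts, with log2 fold changes of -1.63 in Hp1α Δ/Δ, -3.09 in Hp1γ Δ/Δ, -1.03 in Hp1α/β Δ/Δ, -2.87 in Hp1α/γ Δ/Δ and -1.93 in Hp1β/γ Δ/Δ. In Hp1α Δ/Δ Car9 (-2.13) and Ndrg1 (-1.18) fell with it, and in Hp1γ Δ/Δ Ndrg1 (-1.07) and Vegfa (-1.04). In Hp1α/β Δ/Δ Cox4i2 (-1.36) and Car9 (-1.16) fell. In Hp1α/γ Δ/Δ Car12 (-3.13), Adm and Lox (-2.69) led 6 falls of 30 genes, beside 16.3% of all genes, and Angptl4 rose (1.32). In Hp1β/γ Δ/Δ Cox4i2 fell (-1.42) and Plod2 rose (1.65).

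Among 6 genes of glucose and lactate transport, Slc16a3, the lactate exporter MCT4, had 26.6, 30.3 and 26.9 CPM in the triple knockout against 178, 176 and 175 CPM in set A, and 17.6, 17.6 and 19.5 CPM in Setdb1 Δ/Δ against 93, 97.4 and 92.1 CPM in Setdb1 F/F. The groups did not overlap, and its log2 fold changes were -2.69 ± 0.047 and -2.38 ± 0.050 (SE). Its chaperone Bsg fell as well, with -1.15 ± 0.025 (SE) in the triple knockout and -1.004 ± 0.025 in Setdb1 Δ/Δ, from 284, 291 and 285 to 144, 142 and 145 CPM, and these were the 2 genes of the list called in each knockout. That is 2 of 6, beside 17.1% of all genes lower in the triple knockout and 11.4% in Setdb1 Δ/Δ. Slc2a3, the transporter GLUT3, rose in Hp1β Δ/Δ (1.06 ± 0.035, adjusted p = 6.36e-09) and Hp1α/β Δ/Δ ESCs (1.91 ± 0.024, adjusted p = 2.59e-19). Slc2a4, the transporter GLUT4, fell in Hp1α/γ Δ/Δ ESCs (-2.53 ± 0.24, adjusted p = 0.000274). Relative to Hp1α/β Δ/Δ ESCs, Slc16a3 (-3.14), Bsg (-1.18) and Slc2a3 (-1.11) fell in the triple knockout.

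Of 12 genes listed as pyruvate entry, Pdk2 (-2.39 ± 0.20), Pdha1 (-1.47 ± 0.033) and Pdk3 (-1.26 ± 0.076) fell in the triple knockout, as they did relative to Hp1α/β Δ/Δ ESCs (-2.43, -1.24 and -1.42). These were 3 of 12 genes, beside 17.1% of all genes lower relative to set A and 16% relative to Hp1α/β Δ/Δ ESCs. In Setdb1 Δ/Δ Pdha1 fell (-1.88 ± 0.024), 1 of 12 genes beside 11.4% of all genes. Counts of this size in a short list are near those shares, and nothing is read from them. Pdha1 encodes a subunit of pyruvate dehydrogenase, and Pdk2 and Pdk3 are kinases that inactivate it. The list had medians of -0.12 and 0.035. Pdk4 fell in Hp1β Δ/Δ ESCs (-1.25 ± 0.16). Pdk2 fell (-1.12 ± 0.23) and the pyruvate carrier Mpc1 rose (1.21 ± 0.20) in Hp1α/γ Δ/Δ ESCs. Of 7 genes of the pentose phosphate pathway, G6pdx (-1.69 ± 0.051), Pgd (-1.31 ± 0.035) and Tkt (-1.22 ± 0.028) fell in the triple knockout, and Tkt (-1.21 ± 0.024) and Pgls (-1.11 ± 0.059) in Setdb1 Δ/Δ. These were 3 and 2 of 7 genes, beside 17.1% and 11.4% of all genes. G6pdx (-1.62) and Tkt (-1.27) also fell relative to Hp1α/β Δ/Δ ESCs. Ndufa4, the paralog of Ndufa4l2, fell in the triple knockout relative to set A (-1.11 ± 0.050, adjusted p = 1.06e-13) and to Hp1α/β Δ/Δ ESCs (-1.10), and Cox4i1, of the same respiratory complex, was not called (0.29 ± 0.026). Neither was called in Setdb1 Δ/Δ, with -0.67 ± 0.035 and -0.57 ± 0.023 (SE).

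Germ cell isozymes of glycolysis had low counts, and of 10 listed only 3 to 6 passed the filter in a comparison. Ldhc, the testis lactate dehydrogenase, rose in all 6 single and double knockouts, with log2 fold changes of 1.36 in Hp1β/γ Δ/Δ, 1.81 in Hp1β Δ/Δ, 1.96 in Hp1α Δ/Δ, 2.74 in Hp1γ Δ/Δ, 2.76 in Hp1α/β Δ/Δ and 3.08 in Hp1α/γ Δ/Δ. It had 12, 14 and 29 counts in set B and 121, 182 and 143 counts in Hp1α/γ Δ/Δ. Pdha2 rose in the triple knockout, from 2, 4 and 1 counts in set A to 38, 25 and 40 counts (3.70 ± 0.51, adjusted p = 2.03e-06), as did Aldoart2, from 0, 8 and 2 to 25, 15 and 34 counts (2.73 ± 0.63, adjusted p = 0.000581). Pdha2 (2.56) and Aldoart2 (1.69) also rose in the triple knockout relative to Hp1α/β Δ/Δ ESCs, and Ldhc fell (-2.30). Aldoart2 (2.56) and Ldhal6b (2.89) also rose in Hp1α/γ Δ/Δ ESCs. In Setdb1 Δ/Δ Eno4 rose (1.01 ± 0.21) and Ldhal6b fell (-3.33 ± 0.67), from 20, 11 and 17 counts to 0, 0 and 5.

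Between the wild-type sets 0 of 84 pathway genes were called by edgeR and 0 by DESeq2, although 43 had an unadjusted and 38 an adjusted p under 0.05, beside 24.8% of all genes by the latter.

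**Figure D5:**
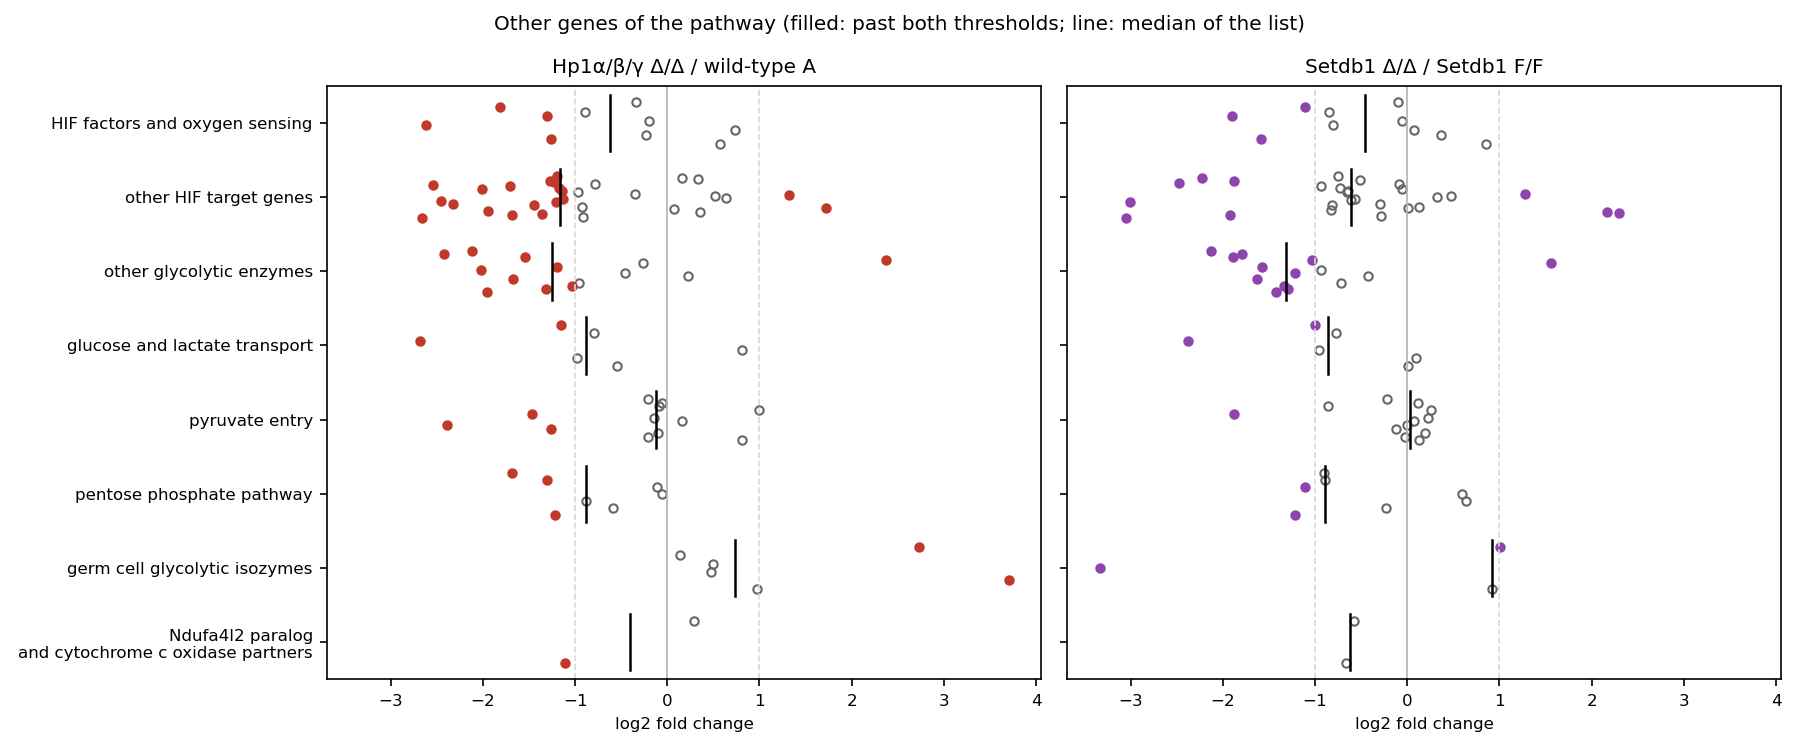
The log2 fold change of the tested genes of 8 pathway lists (rows) in Hp1α/β/γ Δ/Δ against wild-type set A (left) and Setdb1 Δ/Δ against Setdb1 F/F (right), where filled points passed both thresholds, open points did not, and vertical bars are list medians. The other glycolytic enzymes have medians of -1.25 and -1.31, and pyruvate entry of -0.12 and 0.035.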

How the data were processed

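RNA-seq libraries of 33 ESC samples were analysed from 8 deposited tables, which hold estimated counts and TPM per gene made by the authors. The submitters' processing notes name TopHat2 2.1.1, RSEM, edgeR and GRCm38.p5, with no roles. Estimated counts (11.16% to 15.46% of a library's values not whole) were rounded. Each comparison was fitted on its 6 libraries, and the difference of both knockout effects on 12, with edgeR 4.0.16 in R 4.3.3 (TMM scaling, filterByExpr with a minimum count of 10, quasi-likelihood test, Benjamini-Hochberg adjustment). A gene was called where its adjusted p was under 0.05 and its log2 fold change exceeded 1 in size. Deposited TPM were averaged and not tested. Fold changes and p-values of the authors' own comparisons were not used. All 10 genes were given in every comparison. Of each pathway list, every called gene was named, or with more than 6 called the 3 largest rises and 3 largest falls. The genes and lists were chosen with earlier results of these data known. Alternatives were DESeq2 1.42.0, other size factors and filters, deposited TPM in place of CPM (chosen after seeing the data), the replicate block, the other wild-type set and each replicate left out. Scripts were tested on simulated data. The values of 1 listed gene are not reported here, though it is kept in the counts over its list.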

Additional observations from a re-analysis of the deposited data

Results flagged for a closer look

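The effects of both knockouts on the pathway genes were compared over 12 libraries, as the log2 fold change in the triple knockout minus that in Setdb1 Δ/Δ. The difference passed an adjusted p of 0.05 in the quasi-likelihood test of edgeR (Benjamini-Hochberg adjustment), with a size over 1, for 24 of 87 genes, 7 higher and 17 lower. Over all genes 15.4% were higher and 16.5% lower, so nothing particular to the pathway is read from this count. The controls are unlike, wild-type set A and Setdb1 F/F. A difference between them cannot be told apart from one between the knockouts.

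Of the glycolytic enzymes, 3 differed. Eno2 rose in the triple knockout (2.37) and fell in Setdb1 Δ/Δ (-1.03), a difference of 3.38 ± 0.17 (SE). The difference was -1.85 ± 0.086 for Eno3 and -1.11 ± 0.030 for Gpi1, which had log2 fold changes of -2.02 and -0.94. Of transporters, it was 1.74 ± 0.025 for Slc2a3 and -1.11 ± 0.28 for Slc2a4. Of the kinases of pyruvate dehydrogenase, it was -2.41 ± 0.25 for Pdk2 and -1.17 ± 0.082 for Pdk3, and of the pentose phosphate pathway -1.55 ± 0.24 for Rpia.

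Of the HIF factors, Epas1 differed by -1.83 ± 0.079, with -2.61 in the triple knockout and -0.81 in Setdb1 Δ/Δ. Of the HIF targets, Bhlhe40 (2.53 ± 0.076), Car9 (1.67 ± 0.67) and Pfkfb3 (1.57 ± 0.092) had positive differences, and Lox (-2.44 ± 0.73) and Loxl2 (-1.91 ± 0.12) negative ones. Lox rests on 3, 1 and 2 counts in Setdb1 F/F and 5, 7 and 5 in Setdb1 Δ/Δ.

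The germ cell isozymes Aldoart2 (4.69 ± 1.36) and Ldhal6b (3.82 ± 0.90) differed at low counts. Aldoart2 had 2, 5 and 1 counts in Setdb1 F/F and 0, 1 and 1 in Setdb1 Δ/Δ, and Ldhal6b 20, 11 and 17 and 0, 0 and 5. ESC marker sums, given above, also differed between the conditions, and their part in these differences was not tested.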

How the results depend on the processing

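Of 1270 recomputed values of the 10 genes, 1228 kept their direction and their side of the thresholds, 12 lost and 8 gained a call, and 22 reversed, all 22 with the other wild-type set as control. Reversed log2 fold changes were, in Hp1α Δ/Δ, -1.27 for Ndufa4l2, -0.41 for Pgk1 and -0.15 for Ldha, in Hp1β Δ/Δ, -0.30 for Slc2a1 and -0.18 for Ldha, and in Hp1γ Δ/Δ, -0.98 for Ndufa4l2, -0.41 for Slc2a1, -0.054 for Pfkp, -0.42 for Pgk1 and -0.21 for Pdk1. In Hp1α/β Δ/Δ they were -0.11 for Slc2a1, -0.17 for Pgk1, -0.18 for Ldha, -0.16 for Pdk1, -0.17 for Bnip3, -0.55 for Egln3 and -0.68 for Ankrd37. In Hp1α/γ Δ/Δ they were 0.19 for Pdk1 and 0.35 for Bnip3, and in Hp1β/γ Δ/Δ 0.066 for Ndufa4l2, 0.61 for Slc2a1 and 0.031 for Ankrd37. The wild-type sets differ for these genes, as given above.

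With that control, 3 of the 10 genes were called in Hp1α Δ/Δ, 2 in Hp1γ Δ/Δ, 0 in Hp1α/β Δ/Δ and 0 in Hp1β/γ Δ/Δ. Of all genes, 9.02%, 10.6%, 11.1% and 17.5% were called in the same order. Pathway genes called were 8 in Hp1γ Δ/Δ and 11 in Hp1β/γ Δ/Δ, against 5 and 6, beside 10.6% and 17.5% of all genes. On the adjusted p alone, 8, 10, 9, 7, 9, 6 and 9 of the 10 genes passed in Hp1α Δ/Δ, Hp1β Δ/Δ, Hp1γ Δ/Δ, Hp1α/β Δ/Δ, Hp1β/γ Δ/Δ, Hp1α/γ Δ/Δ and set B, beside 45%, 51.1%, 46.7%, 43.4%, 51.7%, 46.5% and 24.8% of all genes, and 59, 63, 58, 55, 51, 40 and 38 pathway genes. For pathway genes it was 74 in the triple knockout, 69 relative to Hp1α/β Δ/Δ, 70 in Setdb1 Δ/Δ and 65 for the difference of both effects, beside 81.6%, 80.6%, 78.9% and 64.9% of all genes. Fewer criteria give more calls by construction.

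Leaving out 1 replicate gave 1 to 2 of the 10 genes called in Hp1γ Δ/Δ, 1 to 2 in Hp1β/γ Δ/Δ, and 0 to 1 pathway genes between the wild-type sets, where the 1 appeared without set B replicate 1. Of the 5 genes most like Ndufa4l2, 2 remained by Spearman correlation and 3 with a pseudocount of 0.1, and the cause was not tested. Same-numbered libraries did not deviate together (r from -0.057 to 0.089 over 30 pairs). With the replicate number as a block, the 10 genes gave 2 calls in Hp1α/γ Δ/Δ, where Ndufa4l2 was at 0.98, and the same number of calls as without it in every other comparison. Scaling by total counts, chosen after seeing the data, left 2 calls in Hp1α/γ Δ/Δ (Ndufa4l2 at 0.86) and 6 in Setdb1 Δ/Δ. Shares of all genes called with a replicate left out, with the block or with this scaling are not given here. Nothing is read from these counts of calls. Depth limits Ndufa4l2 in the triple knockout, where 9 counts in all remain.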
